A study of Mus musculus with 6 samples.

Results

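BCL2 family genes encode the proteins that decide whether a cell's mitochondria are opened during apoptosis, and 10 of them are described here in mouse osteoclast precursors (OCPs): Bcl2, Bcl2l1, Mcl1, Bcl2a1b, Bax, Bak1, Bcl2l11, Bid, Bbc3 and Pmaip1. They were taken by gene name from a table of 57180 genes, and all 10 had a single row and passed the filter on low counts. The cells were bone marrow-derived macrophages (BMDMs) from wild-type C57BL/6 (WT) mice or from mice without the long noncoding RNA lincRNA-EPS (KO), with 3 libraries per genotype. Cells of both genotypes received M-CSF at 40 ng/mL, alone for the first 24 h, and RANKL at 40 ng/mL joined it for another 48 h, so that the comparison is between RANKL-primed cells, and no library without RANKL was analysed here. The KO mice came from a commercial model organism centre, and no promoter or cell type that would limit the deletion is named. The design text calls the 3 replicates of a genotype biologically independent, and no age of the mice is given in the labels.

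Apoptosis through mitochondria starts when the effector proteins BAX and BAK form pores in the outer membrane and cytochrome c leaks into the cytosol. The anti-apoptotic proteins (BCL2, BCL-XL from Bcl2l1, MCL1 and A1 from Bcl2a1b) hold the effectors in check. BH3-only proteins (BIM from Bcl2l11, BID, PUMA from Bbc3 and NOXA from Pmaip1) carry a death signal by binding to either side. Osteoclasts are short-lived cells, and BIM, MCL1 and BCL-XL are known to set how long they survive. LincRNA-EPS owes its name to a prosurvival role in erythroid cells.

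What joins these proteins is the BH3 motif, a short helix with a conserved leucine and a conserved aspartate, through which one family member docks on another. The coding strand of this motif is shown for the 8 members in which a search of 9 found 1 match, since it is what makes these genes a family although most of its letters differ between them. Each run below has 27 bases, 5′ to 3′, from GENCODE M21 transcripts on GRCm38, and the capitals mark the leucine codon and, 5 codons on, the aspartate codon.
Bcl2, chr1:106712575-106712601, minus strand: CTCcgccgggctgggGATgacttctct
Bcl2l1, chr2:152829697-152829723, minus strand: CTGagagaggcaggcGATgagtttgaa
Mcl1, chr3:95659436-95659462, plus strand: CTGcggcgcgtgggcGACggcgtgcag
Bax, chr7:45465997-45466023, minus strand: CTCcggcgaattggaGATgaactggac
Bak1, chr17:27022531-27022557, minus strand: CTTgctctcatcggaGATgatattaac
Bcl2l11, chr2:128147150-128147176, plus strand: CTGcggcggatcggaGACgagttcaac
Bid, chr6:120897289-120897315, minus strand: CTCgcccaaataggcGATgagatggac
Bbc3, chr7:16313773-16313799, plus strand: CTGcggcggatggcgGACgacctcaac
All 8 runs lie within 1 coding exon. The searched pattern required the leucine and the aspartate and limited the amino acids on either side of the aspartate. The 2 codons in capitals therefore agree by the search itself, and no other of the 9 codons encodes the same amino acid in all runs. The GC content of the run went from 40.7% in Bak1 to 81.5% in Mcl1. Bcl2a1b held no match to the searched pattern, and no sequence is printed for Pmaip1.

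The libraries held 17757351 to 19998611 estimated counts each, and lincRNA-EPS (listed as Ttc39aos1) had 20, 37 and 41 counts in the WT libraries and 0 in each KO library. The members were measured with 113 counts (Bbc3 in KO replicate 3) to 15933 counts (Mcl1 in KO replicate 3), all above the floor of 3 counts. In KO replicate 2 the gene with the most counts was the ribosomal RNA gene Rn18s-rs5, at 2.71% of the counts. The top gene of each other library was at 1.36% to 1.48%. KO replicate 3 stood apart from the other libraries in other respects. Its correlation with WT replicate 2 was 0.951, the lowest of any pair over the log2 normalized counts of all tested genes, and its level fell by 0.465 on the log2 scale for each 10 points of transcript GC content, against the mean of the 6 libraries. The same slope was 0.0691, 0.337 and 0.0881 in WT replicates 1, 2 and 3, and 0.0167 and -0.0453 in KO replicates 1 and 2. All 3 WT slopes were therefore above all 3 KO slopes, although the large ones belonged to WT replicate 2 and KO replicate 3, and those of the other 4 libraries were close together. The part of the GC slope in a genotype difference was not tested beyond the correction. For this reason the members are given as deposited and after a correction for GC content, and for several of them also without the library on which the difference most rests. Macrophage and osteoclast markers were abundant: 7 macrophage genes summed to between 14852 and 17653 CPM per library, and 10 osteoclast precursor genes to between 5249 and 7415 CPM. Most of the macrophage sum was Lyz2, at 11502.5 to 14416.8 CPM.

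Levels were first set on a common scale, as normalized counts (CPM, counts scaled to library size with TMM factors) per kilobase of each gene's longest transcript. Mcl1 was the highest member, with a mean level of 208 CPM per kilobase over the 6 libraries. Bax followed with 118 and Bak1 with 68.0 CPM per kilobase. These 3 genes kept their order in every library, since the lowest Bax value (78.6) was just above the highest Bak1 value (78.2). Bid (27.4), Bcl2l1 (23.8) and Bcl2a1b (23.2 CPM per kilobase) came next, and their ranges over the libraries overlapped. Bcl2l11 was at 14.7 and Pmaip1 at 10.6 CPM per kilobase, also with overlapping ranges. Bbc3 (5.81) and Bcl2 (3.05 CPM per kilobase) were lowest, and their ranges met in KO replicate 3, where Bbc3 had its lowest level of 3.17. Bcl2 has a longest transcript of 7191 bases, of which 708 are coding, so its place depends on the length taken.

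**Figure D1:**
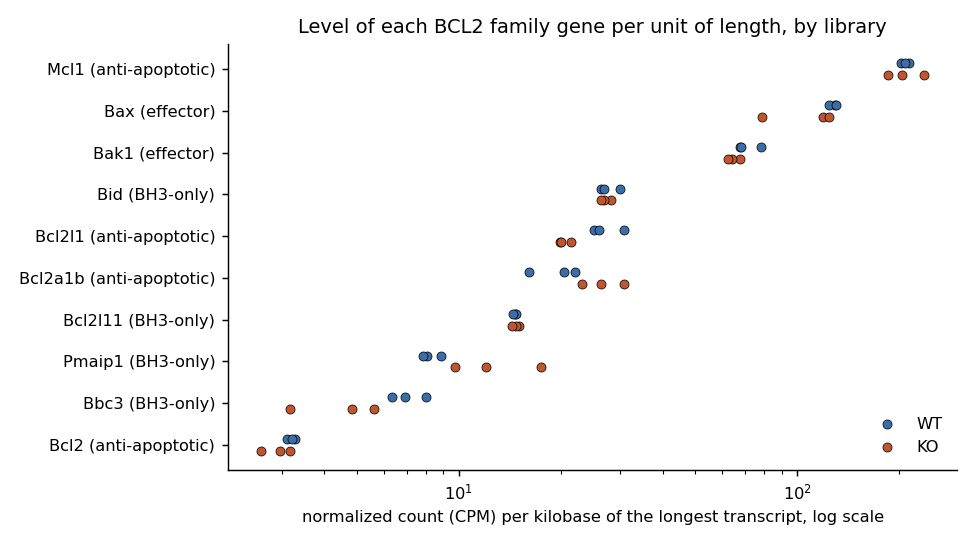
Each point is 1 library, with the normalized count per kilobase of the longest transcript on a log axis and the genes ordered by their mean over the 6 libraries (blue, WT; orange, KO; 3 libraries each). Mcl1 (mean 208) lies at the top and Bcl2 (mean 3.05) at the bottom, and the KO points are apart from the WT points for Bcl2l1, Bcl2a1b, Bbc3 and Pmaip1. For Bax, KO replicate 2 and WT replicate 2 almost coincide.

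Within the anti-apoptotic arm, the place of Mcl1 was nearly the same in every library. It made up 80.2% to 81.4% of the summed per-kilobase level of the 4 anti-apoptotic genes in WT and 80.1% to 81.5% in KO. The rest was divided differently. Bcl2l1 took 9.54% to 12.2% in WT and 6.85% to 8.63% in KO, whereas Bcl2a1b took 6.41% to 8.496% in WT and 10.02% to 10.6% in KO. Both pairs of ranges also stayed apart after correction for GC content, at 9.20% to 10.5% against 8.56% to 8.59% for Bcl2l1 and at 7.23% to 8.72% against 9.18% to 10.3% for Bcl2a1b. Bcl2 was at 1.02% to 1.28% over all libraries.

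In the BH3-only arm Bid was the largest part, with 46.9% to 49.3% in WT and 43.0% to 48.0% in KO, and Bcl2l11 took 24.4% to 26.0% in WT and 23.5% to 25.7% in KO. After correction for GC content the ranges of Bid still overlapped, but those of Bcl2l11 did not, at 25.84% to 26.7% in WT and 22.2% to 25.80% in KO. The share of Pmaip1 was 13.2% to 15.7% in WT and 16.7% to 28.4% in KO, and after correction for GC content it was 14.8% to 16.3% in WT and 16.8% to 22.6% in KO. Its ranges were thus apart in both. The share of Bbc3 was 11.3% to 13.1% in WT and 5.17% to 9.59% in KO as deposited, but after the correction it was 9.17% to 10.6% in WT and 8.85% to 10.1% in KO, and the ranges overlapped. Shares of this kind have no counterpart over all genes, so their separation was not set against a background. The summed level of the BH3-only genes overlapped, at 56.1 to 60.6 CPM per kilobase in WT and 58.3 to 61.3 in KO. For the 2 effectors the sum was 197 to 202 CPM per kilobase in WT and 141 to 188 in KO, and the order of the groups turned after the correction, to 153 to 180.43 in WT and 180.44 to 223 in KO.

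To ask whether loss of lincRNA-EPS moved the survival or death genes of OCPs, KO was compared with WT by edgeR's quasi-likelihood test over all 13428 genes that passed the filter. A gene was called with an adjusted p under 0.01 and a fold change above 1.3. None of the 10 members was called, where 0.00745% of all tested genes (1 gene, Dtx3l) were. With DESeq2 the count of members was again 0, beside 1.22% of the genes given an adjusted p. At an unadjusted p under 0.05, 2 members were higher in KO (Pmaip1 and Bcl2a1b), with 13.0% of all tested genes, and 2 were lower (Bcl2l1 and Bbc3), with 13.2% of all tested genes. Without WT replicate 2, Bcl2a1b missed that p (0.0666 in edgeR) and 3 members were left, and leaving out any other library left the same 4. For the fits without a library, the share of all tested genes is not given here. All KO libraries were above all WT libraries for Pmaip1 and Bcl2a1b (16.9% of all tested genes), and below them for Bcl2l1, Bax and Bbc3 (18.8% of all tested genes). With 10 members, counts of this size are near the background. The median log2 fold change of the members was -0.086, with 0.0091 over all tested genes. Permuting 3 against 3 libraries exactly gives no p below 0.1, so single members rest on edgeR's fit across all genes, whose adjusted p ran from 0.147 to 0.990 for the members.

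**Figure D2:**
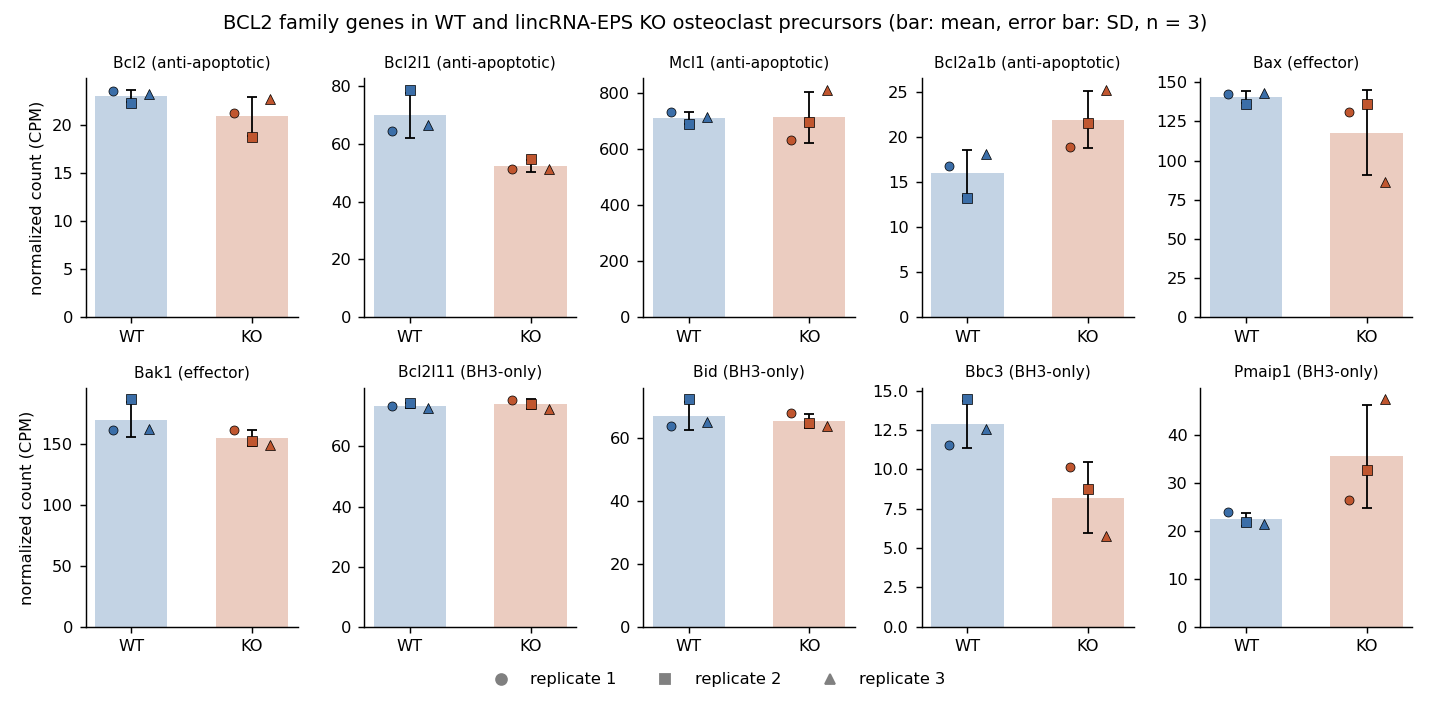
Normalized counts (CPM, linear axes from 0) of the 10 members in the 3 WT (blue) and 3 KO (orange) libraries, with a symbol for each replicate number, which was not taken to pair samples, the mean as a bar and the SD as an error bar. Pmaip1 and Bcl2a1b sit higher in all KO libraries, Bcl2l1 and Bbc3 sit lower, and KO replicate 3 (86.5 CPM) is far below the other Bax values.

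Among the anti-apoptotic genes, Bcl2l1 had the smallest unadjusted p as deposited, although its groups overlapped after correction for GC content. It encodes BCL-XL, which guards the outer mitochondrial membrane. Its normalized count was 64.5, 78.8 and 66.4 CPM in WT replicates 1, 2 and 3 and 51.2, 54.9 and 51.3 CPM in KO replicates 1, 2 and 3. The KO libraries were thus tightly grouped below the lowest WT library, with means of 69.9 ± 7.74 in WT and 52.5 ± 2.13 in KO (SD, n = 3). The log2 fold change was -0.41 (SE 0.11, 95% interval -0.66 to -0.17, unadjusted p = 0.00387), with an adjusted p of 0.147 by edgeR and 0.0246 by DESeq2. After correction for GC content the log2 fold change was -0.19 (interval -0.40 to 0.011, edgeR's adjusted p = 0.214), and KO replicate 3 (63.7 CPM) then lay among the WT values (62.6 to 67.9). The corrected value was -0.12 without KO replicate 1. Without KO replicate 3, the log2 fold change was -0.40 as deposited and -0.29 after the correction.

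Mcl1 encodes a short-lived anti-apoptotic protein that is made and degraded fast. WT libraries had 732, 690.5 and 713 CPM, and KO libraries 632, 696 and 811 CPM. The lowest and the highest library were both KO, and the WT values lay between them. With means of 712 ± 21.03 and 713 ± 90.8 (SD, n = 3), the log2 fold change was 0.0024 with a 95% interval of -0.25 to 0.26. Changes within that interval, in either direction, are not excluded. Bcl2, the founding member of the family and a target of the osteoclast factor MITF, was at 23.5, 22.3 and 23.1 CPM in WT and at 21.3, 18.7 and 22.7 CPM in KO. The ranges overlapped through KO replicate 3. Its log2 fold change was -0.14 (SE 0.11, edgeR's adjusted p = 0.448), and -0.065 without KO replicate 2. After correction for GC content it was -0.24 (interval -0.43 to -0.045, edgeR's adjusted p = 0.133), and all KO libraries (18.5 to 21.1 CPM) were then below all WT libraries (23.6 to 24.0 CPM).

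Bcl2a1b is 1 of a cluster of near-identical mouse genes for A1, an NF-κB-induced survival protein of myeloid cells. Its normalized count was 16.8, 13.2 and 18.0 CPM in WT and 18.9, 21.5 and 25.2 CPM in KO. All KO libraries were above all WT libraries, although WT replicate 3 and KO replicate 1 were close, and the means were 16.0 ± 2.51 and 21.9 ± 3.17 (SD, n = 3). The log2 fold change was 0.45 (SE 0.16, 95% interval 0.094 to 0.81, unadjusted p = 0.0190, edgeR's adjusted p = 0.153). It was 0.29 (edgeR's adjusted p = 0.140) after correction for GC content, with the same order of the groups. Without WT replicate 2 it was 0.33 (unadjusted p = 0.0666) and without KO replicate 3 it was 0.34.

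Reads of Bcl2a1b can be shared with its copies, which the first 120 coding bases of Bcl2a1b, Bcl2a1a and Bcl2a1d show (GENCODE M21, GRCm38). Capitals in Bcl2a1a and Bcl2a1d mark bases that differ from Bcl2a1b, and those in Bcl2a1b mark every base at which either copy differs.
Bcl2a1b, chr9:89199360-89199479, plus strand: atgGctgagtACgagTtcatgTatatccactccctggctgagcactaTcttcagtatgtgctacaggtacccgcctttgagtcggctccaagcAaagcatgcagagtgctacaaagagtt
Bcl2a1a, chr9:88957051-88957170, plus strand: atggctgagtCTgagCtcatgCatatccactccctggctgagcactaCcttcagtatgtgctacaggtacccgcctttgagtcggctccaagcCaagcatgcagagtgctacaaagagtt
Bcl2a1d, chr9:88731600-88731719, minus strand: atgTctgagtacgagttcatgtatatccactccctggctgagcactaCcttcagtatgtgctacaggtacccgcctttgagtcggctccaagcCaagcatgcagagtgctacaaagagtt
Over the 516 coding bases, Bcl2a1a matched Bcl2a1b at 97.9% and Bcl2a1d at 98.8%. Of the 718 windows of 100 bases in the Bcl2a1b transcript, 31.1% also occurred in Bcl2a1d and 16.4% in Bcl2a1a, so the split between the copies is uncertain. Both copies were higher in KO as well, with a log2 fold change of 0.63 (unadjusted p = 0.00947) for Bcl2a1a and 0.56 (unadjusted p = 0.0251) for Bcl2a1d, with edgeR's adjusted p at 0.147 and 0.160. With Bcl2a1a, Bcl2a1b, Bcl2a1c and Bcl2a1d summed, the level was 25.7, 19.5 and 27.1 CPM in WT and 29.4, 34.2 and 39.0 CPM in KO. For the sum, the log2 fold change was 0.50 (SE 0.16, unadjusted p = 0.0104, edgeR's adjusted p = 0.147), and 0.35 (edgeR's adjusted p = 0.0995) after correction for GC content. Bcl2a1b took 63.0% to 67.5% of the sum in every library. The sum does not depend on how reads were divided among the copies.

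Of the effectors, Bax was at 142, 136.28 and 143 CPM in WT and at 131, 136.05 and 86.5 CPM in KO. No KO library was above a WT library, but KO replicate 2 and WT replicate 2 were almost equal, and most of the difference came from KO replicate 3. The log2 fold change was -0.26 (SE 0.16, 95% interval -0.62 to 0.11, edgeR's adjusted p = 0.319), and -0.075 without KO replicate 3. Bax has 63.5% GC in its longest transcript, and its direction turned with the correction for GC content. After it, the levels were 127, 96.3 and 125 CPM in WT and 125, 144 and 156 CPM in KO, with a log2 fold change of 0.29 (interval 0.025 to 0.56, unadjusted p = 0.0353, edgeR's adjusted p = 0.163). The corrected groups overlapped, and the corrected log2 fold change was 0.16 without WT replicate 2 and 0.21 without KO replicate 3. No direction can be given for Bax from these libraries.

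Bak1, the effector that sits in the outer mitochondrial membrane already in healthy cells, was at 162, 187 and 162 CPM in WT and 162, 153 and 149 CPM in KO. The groups overlapped, with means of 170.1 ± 14.3 and 155 ± 6.53 (SD, n = 3). Its log2 fold change was -0.14 (95% interval -0.35 to 0.079, edgeR's adjusted p = 0.365) as deposited and 0.13 (edgeR's adjusted p = 0.387) after correction for GC content, so its direction turned as well. It was -0.067 as deposited without WT replicate 2, and 0.018 after the correction without KO replicate 3. The ratio of Bax to Bcl2 counts, which needs no scaling for library size, was 6.06, 6.12 and 6.19 in WT and 6.17, 7.28 and 3.81 in KO. The WT ratios were nearly constant and the KO ratios lay on both sides of them. On the log2 scale the ratio was lower in KO, with a difference of -0.14 (two-sided exact permutation p = 0.9), and without KO replicate 3 it was higher, with a difference of 0.13 (exact permutation p = 0.2). Bax and Bcl2 lie far apart in GC content, at 63.5% and 46.3%. With GC-corrected levels the ratio was 5.29, 4.05 and 5.28 in WT and 5.92, 7.80 and 7.497 in KO. Every KO library was then above every WT library, with a log2 difference of 0.54 (exact permutation p = 0.1, the smallest that this design allows), so the direction of the ratio depends on the correction as well as on KO replicate 3.

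As deposited, the BH3-only genes held both the highest and the lowest log2 fold change of the members, neither past the limits. After correction for GC content Pmaip1 was still the highest, but the lowest was the anti-apoptotic Bcl2 (-0.24). Pmaip1, which encodes NOXA, the BH3-only protein that binds MCL1 and marks it for degradation, was at 24.1, 21.9 and 21.4 CPM in WT and 26.6, 32.8 and 47.5 CPM in KO. Every KO library was above every WT library, and KO replicate 3 was the highest by far, with means of 22.5 ± 1.42 and 35.6 ± 10.8 (SD, n = 3). The log2 fold change was 0.67 (SE 0.20, 95% interval 0.22 to 1.11, unadjusted p = 0.00817), a 1.59-fold higher level, with an adjusted p of 0.147 by edgeR and 0.0331 by DESeq2. After correction for GC content the log2 fold change was 0.42 (interval 0.12 to 0.72), the adjusted p was 0.104 by edgeR and 0.0344 by DESeq2, and the groups remained apart, at 22.2 to 25.9 CPM in WT and 26.5 to 38.7 CPM in KO. Leaving out KO replicate 3 gave 0.40 as deposited and 0.28 after the correction. Over the 6 libraries left out in turn, the value stayed between 0.40 and 0.84 as deposited and between 0.28 and 0.55 after the correction.

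Bbc3 encodes PUMA, a BH3-only protein that p53 and FOXO3 induce and that binds all anti-apoptotic members. It had the fewest counts of the members in 5 of the 6 libraries, Bcl2a1b having fewer in WT replicate 2. WT libraries had 11.5, 14.4 and 12.6 CPM, and KO libraries 10.2, 8.74 and 5.75 CPM. All KO libraries were below all WT libraries, KO replicate 3 the most, with means of 12.9 ± 1.48 and 8.22 ± 2.25 (SD, n = 3). The log2 fold change of -0.65 (SE 0.21, 95% interval -1.11 to -0.18, unadjusted p = 0.0121) had an adjusted p of 0.147 by edgeR and 0.0587 by DESeq2. With 65.2%, Bbc3 had the highest GC content of the members, and after correction for it the log2 fold change was -0.0029 (interval -0.26 to 0.26, edgeR's adjusted p = 0.990). The corrected levels overlapped, at 9.74 to 10.6 CPM in WT and 9.41 to 11.5 CPM in KO. Without KO replicate 3 the log2 fold change was -0.44 as deposited and -0.091 after the correction.

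Bcl2l11 and Bid showed no separation of the genotypes. Bcl2l11 encodes BIM, which triggers the death of osteoclasts when survival cytokines are withdrawn. It was at 73.5, 74.4 and 72.8 CPM in WT and at 75.6, 74.2 and 72.5 CPM in KO. The groups overlapped almost fully, and the log2 fold change was 0.0095 with a 95% interval of -0.18 to 0.20. Bid, which links death receptors to the mitochondria once caspase-8 cuts its product, was at 63.6, 72.2 and 65.0 CPM in WT and 67.8, 64.6 and 63.6 CPM in KO. Its groups overlapped too, and the log2 fold change was -0.034 (interval -0.25 to 0.18), or 0.033 after correction for GC content. Exons of Bid share 628 bases with Bcl2l13 on the opposite strand, a gene with a mean of 1124 counts. The kit was stranded, but the strand setting of the counting is not given in the sources used here.

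**Figure D3:**
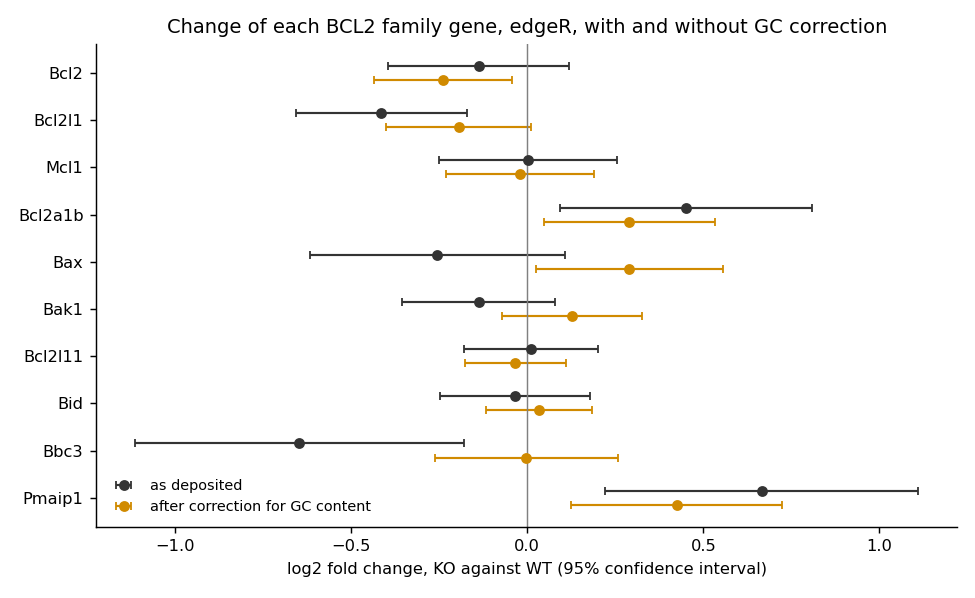
Log2 fold change of each member, KO against WT, from edgeR with its 95% confidence interval, as deposited (black) and after correction for GC content (orange). Pmaip1 (0.67 and 0.42) and Bcl2a1b (0.45 and 0.29) stay above 0 in both fits, Bbc3 goes from -0.65 to -0.0029, and Bax crosses from -0.26 to 0.29.

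As deposited, the log2 fold changes of the members ran with GC content. Pmaip1 had the lowest GC content (42.1%) and the highest log2 fold change, and Bbc3 had the highest GC content (65.2%) and the lowest log2 fold change. Across the 10 members, Pearson's r between the 2 was -0.84, and it was -0.51 over the 13176 tested genes with a GC value. Genes share their libraries and are no independent replicates, so these values are a description. After correction r was -0.12 over the members. At an unadjusted p under 0.05, the corrected fit had 3 members higher in KO (Pmaip1, Bcl2a1b and Bax), with 12.1% of all tested genes, and 1 lower (Bcl2), with 13.7% of all tested genes, and again 0 members past the limits. These corrected counts depended on single libraries. Without WT replicate 1 only Bax and Pmaip1 were counted, without WT replicate 2 only Pmaip1 and Bcl2, without KO replicate 2 only Pmaip1, and without KO replicate 3 only Pmaip1, Bcl2 and Bcl2l1. Pmaip1 was counted in all 6 of these fits. The shares of all tested genes under that p in these fits are not given here. Pmaip1 and Bcl2a1b kept their direction and their separation of the groups with and without the correction. As deposited, 16.9% of all tested genes had KO above WT in all libraries and 18.8% had KO below. That share is not given here after the correction, so the corrected separation of Pmaip1, Bcl2a1b and Bcl2 has no background beside it. The correction takes away any GC-related difference between the libraries, whatever its source, so a genotype effect that follows GC content would be taken away too.

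**Figure D4:**
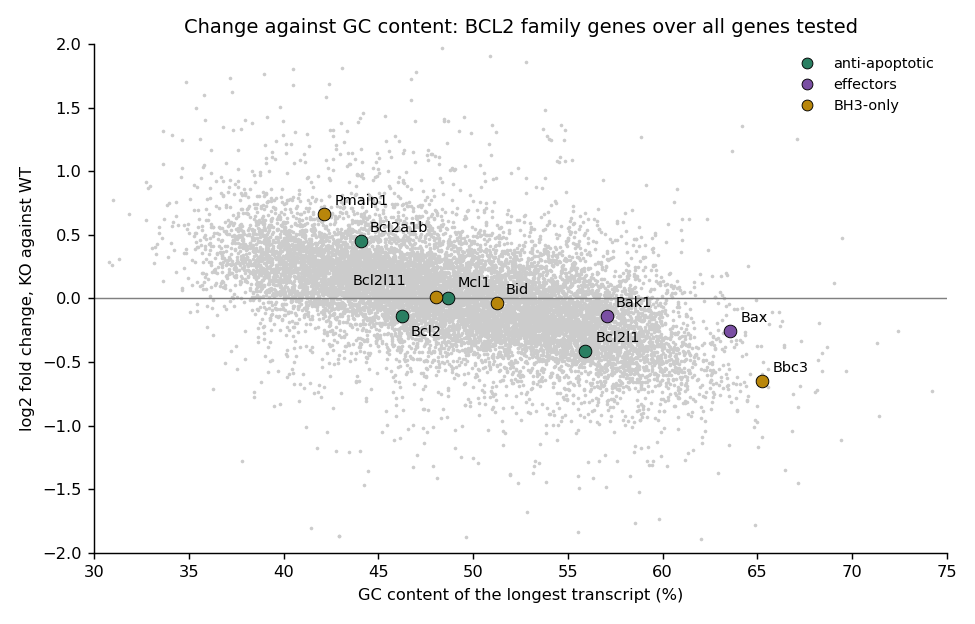
Log2 fold change, KO against WT, against the GC content of the longest transcript for the 10 members (coloured by role) over 13176 tested genes (grey), of which 21 lie outside the axes. Members and grey points both run downwards with GC content, the members from Pmaip1 (42.1% GC, 0.67) to Bbc3 (65.2% GC, -0.65).

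The rest of the pathway was read from 6 further lists. No gene of these lists was past the limits in edgeR, with or without the GC correction, or in DESeq2 as deposited. With the GC correction DESeq2 had 2 past them, Cycs and Htra2, and none of the members, beside 3.31% of the genes given an adjusted p. Counts below are at an unadjusted p under 0.05 in edgeR, where the whole table had 13.0% higher and 13.2% lower as deposited and 12.1% and 13.7% after the correction. Of 16 other BCL2 family genes, 10 were tested, 4 were higher in KO and none was lower as deposited, and 3 were higher and none lower after the correction. The 4 were Bcl2a1a and Bcl2a1d, given above, and the mitophagy receptors Bnip3 (log2 fold change 0.30) and Bnip3l (0.28), which were at 0.065 and 0.057 after correction for GC content. The 3 of the corrected fit were Bcl2a1a, Bcl2a1d and Bad, a BH3-only gene at -0.0092 as deposited and 0.24 corrected. Bcl2l10 had no count in any library. Downstream of the pores, 2 of 14 apoptosome and caspase genes were higher and 1 was lower as deposited, and 4 were higher and 1 lower after the correction, with a different lower gene in each. Cycs, the gene of cytochrome c, was at 126, 82.2 and 121 CPM in WT and 146, 184 and 254 CPM in KO, with a log2 fold change of 0.82 (0.56 after correction, edgeR's adjusted p = 0.147 and 0.0628). Aifm1, a flavoprotein of the intermembrane space, differed by 0.27 (0.18 after correction), and Casp9, the caspase that the apoptosome activates, by -0.29 (-0.16 after correction) on the log2 scale. The lower gene after the correction was Apaf1, the scaffold of the apoptosome, at -0.16 as deposited and -0.26 corrected. Besides Cycs and Aifm1, Diablo (0.20 as deposited and 0.30 corrected) and Htra2 were the higher genes of the corrected fit. Htra2, a mitochondrial protease that blocks inhibitors of apoptosis once released, was at 0.10 as deposited and 0.50 after the correction, with an adjusted p of 0.0595 by edgeR and 0.000811 by DESeq2. Cycs has processed copies in the genome with which reads may be shared, so its count is uncertain.

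Among 8 inhibitor of apoptosis genes, Birc2 (0.36) and Birc5 (0.26) were higher and Birc6 (-0.46) was lower on the log2 scale as deposited. After the correction Birc5 (0.20) was higher and Birc6 (-0.54), Naip2 (-0.27), Naip5 (-0.27) and Naip6 (-0.31) were lower, while Birc2 was at 0.16 and no longer counted. In the death receptor arm 2 of 9 genes were lower, Tnfrsf1a (-0.26) and Tradd (-0.40), and none was higher. After the correction none was counted in either direction, with Tnfrsf1a at -0.039 and Tradd at -0.16. Of 22 tested regulators of the family, 9 were lower and 2 higher as deposited, and 7 were lower and 2 higher after correction for GC content, not all of them the same genes. Stat5a (-0.51) and Stat5b (-0.42), which carry cytokine signals to Bcl2l1, were lower, as was the survival kinase gene Akt1 (-0.36, but 0.028 after correction), and the higher genes were Ywhaz (0.36), a 14-3-3 protein that holds BAD in the cytosol, and Mitf (0.25), the transcription factor named above, which were at 0.24 and 0.072 after correction. The higher genes of the corrected fit were Ywhaz and Atf4, a stress-response factor at 0.15 as deposited and 0.35 corrected. Huwe1 (-0.39), Usp9x (-0.32) and Cbl (-0.29 corrected), which add or remove ubiquitin, were counted as lower in the corrected fit alone. Stat5a and Stat5b remained lower after correction, at -0.22 and -0.31. The NF-κB subunit genes Nfkb1 (-0.28, and -0.41 after correction) and Rela (-0.44, and -0.086 after correction) were also among the lower genes as deposited. Trp73 had at most 1 count per library, and Ddit3 was not counted because its symbol stands on several rows. Of 9 mitochondrial partners, 4 were higher and 1 was lower, with Vdac2 at 0.29, Vdac1 at 0.26, Vdac3 at 0.42, Mtch2 at 0.30 and the hexokinase gene Hk2 at -0.23 on the log2 scale. After the correction 2 were higher and none lower, with Vdac1 at 0.33 and Vdac2 at 0.22, while Vdac3 was at 0.095, Mtch2 at 0.077 and Hk2 at -0.15. All 3 Vdac genes encode channels of the outer membrane on which BAX and BAK act.

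Marker genes of other cells moved with genotype as well. The summed level of 10 neutrophil genes was 1256 to 1416 CPM in WT and 1681 to 2024 CPM in KO, with 6 of 9 tested genes higher and 1 lower at an unadjusted p under 0.05 and none of the 10 at or under 3 counts in all libraries. Osteoclast precursor genes summed to 5249 to 5675 CPM in WT and 6999 to 7415 CPM in KO, with 5 of 10 higher. Of 7 macrophage genes, 4 were lower. After correction for GC content 7 neutrophil genes were higher and none lower, 7 osteoclast precursor genes were higher and 3 macrophage genes were lower. Past the limits in DESeq2 as deposited were 4 neutrophil, 4 osteoclast precursor and 1 macrophage gene, and in edgeR none as deposited and 1 osteoclast precursor gene, Dcstamp (0.77), after the correction. Dendritic cell genes summed to 39.2 to 42.3 CPM in WT and 47.6 to 51.6 CPM in KO. Most of that sum was Itgax, with means of 27.7 CPM in WT and 33.4 CPM in KO. It was the 1 higher gene of 5 tested as deposited, and 2 were higher after the correction. Mast cell genes summed to 0.876 to 1.63 CPM in WT and 2.75 to 3.28 CPM in KO. B cell genes (6.56 to 9.20 CPM) were low throughout. T or NK cell genes summed to 1.81 to 2.31 CPM in WT and 2.39 to 2.82 CPM in KO, with Cd3e, Cd3d and Ncr1 at or under 3 counts. Erythroid genes summed to at most 0.735 CPM, and stromal (21.2 to 32.2 CPM) and endothelial genes (14.8 to 20.4 CPM) had overlapping ranges. The part of these cells in the levels of Pmaip1, Bcl2a1b and the other members was not tested. In bulk RNA, fewer cells of a type and less RNA per cell cannot be told apart.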

How the data were processed

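RNA from 6 cultures was sequenced from stranded mRNA libraries. The authors deposited 1 table of estimated counts per gene, without normalization, and the submitters' processing notes name fastp, HISAT2, StringTie, RSEM and GRCm39, with no versions. Between 25.1% and 26.6% of the detected genes of a library had a value with decimals, and the tests used rounded values. The authors' group means were not used. GENCODE M21 (GRCm38), another build than the submitters', gave positions, lengths and GC content, by gene ID (51884 of 57180). No pair of replicates was within sampling noise (chi-square per degree of freedom at least 3.77).

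In R 4.3.3, edgeR 4.0.16 was run with filterByExpr, TMM, glmQLFit (legacy = FALSE) and glmQLFTest, with Benjamini-Hochberg adjustment over 13428 genes. The limits were an adjusted p under 0.01 and a fold above 1.3. The GC correction used a natural spline (5 degrees of freedom) of each library's deviation on GC content as offsets, for 98.1% of the genes. Alternatives were DESeq2 1.42.0, limma 3.58.1 (voom), other scalings and filters, a replicate block and each library left out. The 10 members and the lists were chosen with earlier results of these data known. Named were all members, and of each other list up to 4 genes with the smallest unadjusted p under 0.05, besides genes at or under 3 counts in every library. Mitf, Mtch2, Dtx3l, Htra2, Apaf1, Diablo, Atf4, Huwe1, Usp9x, Cbl, Bad, Nfkb1, Rela, Dcstamp, Naip2, Naip5 and Naip6 fall outside that rule and were chosen after their values were seen. The same holds for Itgax, Lyz2 and Rn18s-rs5. Bcl2l13, named because its exons overlap those of Bid, also falls outside the rule. The fits were tested on simulated data. Intervals cover the spread between these samples, and the floor of 3 counts was 0.150 to 0.169 CPM.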

Additional observations from a re-analysis of the deposited data

How the results depend on the processing

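All 10 members stayed outside the limits under every alternative that was run, including an adjusted p under 0.05 in edgeR. Bcl2, Bcl2l1, Bcl2a1b and Pmaip1 kept their direction under all of them. Bbc3 kept it as deposited, but after the GC correction it was near 0 and turned when WT replicate 3, KO replicate 1 or KO replicate 2 was left out. The number of genes past the limits was 1 with edgeR, 126 with DESeq2, 3 with the GC correction in edgeR, 341 with it in DESeq2, and 0 to 2 when a library was left out. With the GC correction in edgeR and in DESeq2, the log2 fold change turned to 0.29 and 0.29 for Bax, to 0.13 and 0.13 for Bak1, to 0.033 and 0.033 for Bid, to -0.034 and -0.034 for Bcl2l11 and to -0.020 and -0.020 for Mcl1. Differences near 0 also turned elsewhere. With library size alone Mcl1 was at -0.015 and Bcl2l11 at -0.0052, with no filter they were at -0.0096 and -0.0018, and limma-voom gave -0.0049 for Mcl1.

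Same-numbered libraries showed no common deviation (correlations of -0.20, 0.065 and 0.15, within the -0.27 to 0.27 of all WT and KO pairs). The labels name no pairing, and with 3 libraries per genotype these values cannot exclude one. With the replicate block 1 gene was past the limits, 4 members were again under an unadjusted p of 0.05, and Mcl1 was at -0.0048. The share of all tested genes under that p in this fit is not given here. With the replicate block and the GC correction, values turned to 0.30 for Bax, 0.12 for Bak1, 0.033 for Bid, -0.035 for Bcl2l11 and -0.026 for Mcl1.

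Over the 6 fits that each lacked 1 library, the log2 fold change went from -0.10 to 0.086 for Mcl1, from -0.0017 to 0.026 for Bcl2l11 and from -0.070 to 0.023 for Bid, and that of the Bax to Bcl2 ratio from -0.34 to 0.13. With GC-corrected levels, added after the data were seen, the ratio turned to 0.54. After the GC correction, leaving out libraries, which was added after the data were seen, gave -0.091 to 0.053 for Bbc3 and -0.12 to 0.056 for Mcl1. The causes were not tested. A library left out leaves a genotype with 2 libraries, whose spread is shared in the fit. With 3 libraries per genotype, the widest intervals as deposited were those of Bbc3 and Pmaip1.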
